A study of Homo sapiens with 24 samples.

Results

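The 34 genes described here make up the folding, quality-control and export machinery of the endoplasmic reticulum (ER) together with the sensors and transcription factors of the unfolded protein response. They were taken by symbol from a list of ER folding, sensing and degradation genes, and all 34 were found among the 60655 genes of the deposited count table. All 34 also passed the filter on low counts in each fit. Messenger RNA was measured in 24 libraries of 2 human leukaemia cell lines with the wild-type genotype in their labels. NB4 is an acute promyelocytic leukaemia (APL) line, which carries the PML-RARA fusion, and HL-60 is an acute myeloid leukaemia line without that fusion. Each line was represented by 4 groups of 3 libraries: cells given all-trans retinoic acid (ATRA) and arsenic trioxide (ATO) together, cells given 1 µM ATRA, cells given 0.8 µM ATO, and untreated cells. Treatment lasted 48 h, and the doses inside the combination are not stated separately. The labels number the libraries of a group as batches and do not say that they came from separate cultures, and each p-value reflects no more than the variation among these libraries.

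New secretory and membrane proteins enter the ER through the SEC61 channel, fold there with the help of chaperones and disulfide isomerases, and leave in COPII vesicles, while proteins that fail to fold are returned to the cytosol and degraded. When unfolded proteins pile up, the sensors ATF6, IRE1 (gene ERN1) and PERK (gene EIF2AK3) raise the transcription of this machinery: cleaved ATF6 enters the nucleus, IRE1 splices the XBP1 mRNA into the form that encodes an active factor, and PERK slows translation and favours that of ATF4. Promyelocytes, the stage at which NB4 cells are arrested, load their azurophil granules with myeloperoxidase and serine proteases that are made in the ER. Myeloperoxidase precursors are known clients of calreticulin and calnexin.

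Levels are in CPM, counts per 1000000 after scaling to library size and composition, and are given per library in replicate order. A change is a log2 ratio ± SE from edgeR's quasi-likelihood test (n = 3 libraries per group), and a gene is said to have risen or fallen where its p, adjusted by the Benjamini-Hochberg method over all genes tested, was below 0.05. Library totals were 37811652 to 57795273 counts. NB4 ATRA replicates 2 and 3 differed most within a group (chi-square per degree of freedom 39.3), and HL-60 combination replicate 2 stood apart from the other 2 of its group (25.9 and 18.4, against 5.68 between those 2). The summed level of 10 myeloid precursor markers was 2910 to 3640 CPM in NB4 combination, 6760 to 7560 in NB4 ATRA, 8340 to 8380 in NB4 ATO and 9780 to 10500 CPM in untreated NB4 libraries. In HL-60 the sum was 922 to 1150 CPM in combination, 2350 to 2490 in ATRA, 2880 to 3030 in ATO and 4480 to 5060 CPM in untreated libraries. ELANE, a defining marker of that list, was near 0 in NB4 in all groups (0.195 CPM in untreated cells). The 4 erythroid markers were at 0 in every library, and the sums of T cell, B cell, plasma cell, epithelial and fibroblast markers reached at most 45.9 CPM, for B cell markers in NB4 combination libraries. MPO made up most of the NB4 sum, at a mean of 1960 CPM in combination and 8770 CPM in untreated libraries. In NB4, CEBPE (341 CPM with the combination, against 62.4 CPM in untreated cells), SPI1 (285 against 89.1), PRTN3 (481 against 373) and CD33 (78.3 against 61.6) were higher, and MPO, ELANE, AZU1, CTSG, ANPEP and CEBPA lower. In HL-60 SPI1 (203 against 161) and CEBPE (49.4 against 12.2) were higher and the other 8 lower. The sum was lower in every treated group than in untreated cells of the same line, while the genes described here went both ways. The part of the sum in their changes was not tested. In bulk RNA, fewer cells of a type and less RNA per cell cannot be told apart.

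Across the module, the combination lowered more of these genes than it raised in NB4 cells and raised more than it lowered in HL-60 cells. In NB4 cells, where 35.4% of all genes tested rose and 32.8% fell, 9 of 11 chaperones and partners and all 5 disulfide enzymes fell with the combination, while 4 of 8 degradation genes, ERN1, CREB3 and SEC24D rose. In HL-60 cells, where 30.7% of all genes tested rose and 29.7% fell, 6 of 8 degradation genes, 3 of 5 translocation and export genes and 6 of 11 chaperones and partners rose with it, while 4 of 5 disulfide enzymes, CALR, HSP90B1 and XBP1 fell. The 34 genes held 0.825%, 0.818% and 0.799% of all counts in NB4 combination libraries, against 1.81%, 1.84% and 1.84% in untreated NB4 libraries. In HL-60 they held 0.9%, 0.884% and 0.89% in combination libraries, against 1.13%, 1.17% and 1.17% in untreated libraries. The groups did not overlap in either line.

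In NB4 cells the combination lowered 19 of the 34 genes and raised 8, and 7 did not pass the test, where 68.2% of all 16370 genes tested passed in either direction (35.4% higher and 32.8% lower). The median log2 change was -0.33 over the 34 genes and 0.05 over all genes tested. With libraries scaled by their totals alone the split was 12 higher and 17 lower. At a change of at least 2-fold, 11 of the 34 were called, against 32.5% of all genes. ATRA alone lowered 16 and raised 10 (59.9% of all genes passed, 31.3% higher and 28.6% lower; median -0.05, against 0.03 over all genes). ATO alone lowered 18 and raised 6 (40.8% of all genes passed, 21.2% higher and 19.6% lower), with a median of -0.24, against 0.02 over all genes. Under scaling by totals alone the ATO split was 9 higher and 14 lower, with the median of all genes moved by 0.107, and the ATO calls of DNAJB11, ERO1A, HERPUD1 and SSR1 were lost (adjusted p = 0.235, 0.122, 0.0961 and 0.0845). In these 3 treatments 15 genes fell in each (HSPA5, HSP90B1, HYOU1, DNAJB9, MANF, CRELD2, CALR, CANX, PDIA3, PDIA4, PDIA6, XBP1, HERPUD1, SSR1 and SERP1). The 5 that rose in each were ERN1, CREB3, EDEM1, OS9 and SEC24D. The 3 treatments share their untreated libraries, so their calls are not independent. The share of all genes that fell or rose in each of the 3 was not counted.

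In HL-60 cells the combination raised 18 of the 34 genes and lowered 10, and 6 did not pass, where 60.4% of all 15895 genes tested passed (30.7% higher and 29.7% lower). The median log2 change was 0.19, against 0 over all genes. With libraries scaled by their totals alone the split was 16 higher and 13 lower. ATRA alone raised 11 and lowered 12 (48.6% of all genes passed, 25.2% higher and 23.3% lower), and ATO alone raised 4 and lowered 12 (28.7% of all genes passed, 16.5% higher and 12.1% lower). Their medians were -0.03 for ATRA and -0.06 for ATO, against 0.01 and 0.02 over all genes. Under scaling by totals alone the ATRA split was 10 higher and 15 lower. The 4 genes that rose in each of the 3 treatments were DERL1, EDEM1, OS9 and SEC24D. The 7 that fell in each were HSP90B1, HYOU1, CALR, PDIA4, PDIA6, ERO1A and XBP1. EDEM1, OS9 and SEC24D were the genes that rose in all 3 treatments of both lines. Here too the share of all genes called in all 3 treatments was not counted. Of the libraries that stood apart, leaving out HL-60 combination replicate 2 gave 17 higher and 11 lower genes with the HL-60 combination, and leaving out NB4 ATRA replicate 2 or 3 gave 26 or 25 called genes with NB4 ATRA.

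**Figure D1:**
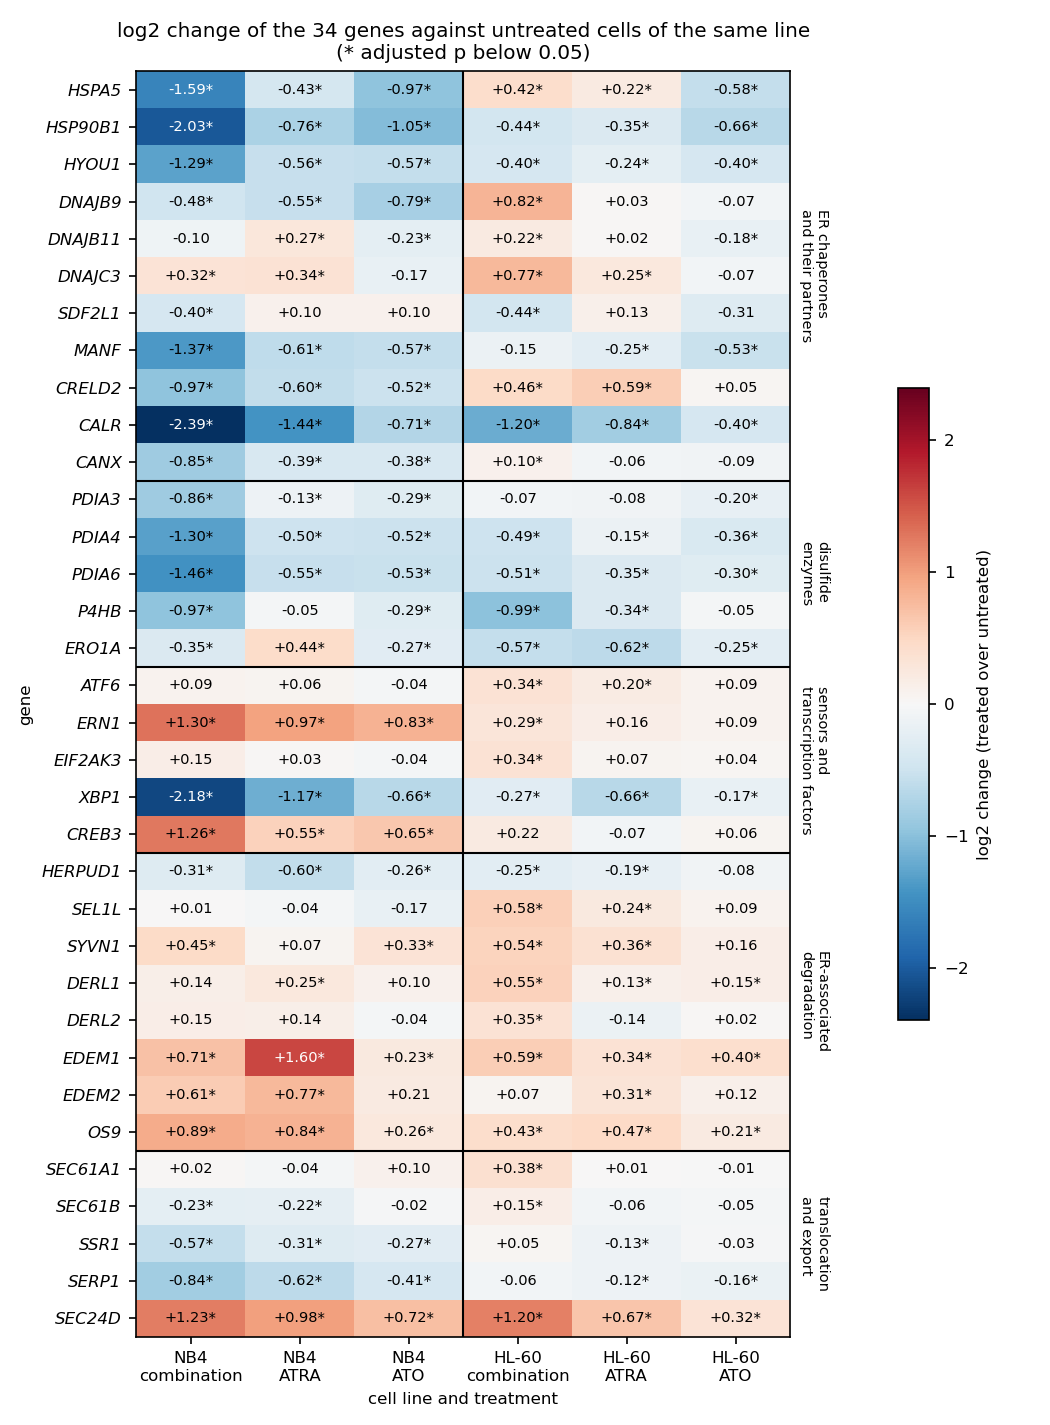
The colour and number of each cell give the log2 change of a gene (rows, grouped by role) in treated over untreated cells of the same line (columns), and an asterisk marks an adjusted p below 0.05. The NB4 combination column runs from -2.39 for CALR to 1.30 for ERN1, and the HL-60 combination column from -1.20 for CALR to 1.20 for SEC24D.

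ATF6 and XBP1 are known to act on the promoters of many of these genes through the ER stress response element. A higher share of matches among these genes was therefore fixed in advance, and the shares below describe the windows without testing anything. That element (ERSE) is CCAAT, bound by NF-Y, then 9 bases of any kind, then CCACG. A shorter version (ERSE-II) is ATTGG, then 1 base of any kind, then CCACG. Both were searched on both strands of the window from 250 bases before to 50 bases after each RefSeq gene start (build GRCh38.p14), which was held for 31 of the 34 genes and not for DERL1, PDIA3 or SEC24D. Genes with several starts have several windows, and shares are of genes with a match in any of theirs. An ERSE was found in 8 of the 31 genes (25.8%), namely CALR, CANX, CRELD2, HSP90B1, HSPA5, PDIA6, SERP1 and XBP1, and in 25 of all 27305 genes searched (0.0916%). An ERSE-II was found in 3 (9.68%), namely HERPUD1, HYOU1 and SDF2L1, against 19 of all genes (0.0696%). The XBP1-binding UPRE (TGACGTGG) was found in HYOU1, where it overlaps an ERSE-II that is not printed below, and in 0.927% of all genes. The ATF4-binding CARE (TGATGNAAN) was found in HERPUD1 and in 4.45% of all genes. CCACG alone, which every ERSE and ERSE-II contains, was found in 74.2% of the 31 genes, against 42.1% of all, and CCAAT in 80.6%, against 39.7%.

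The elements of 8 of the 11 genes are printed 5′ to 3′ on the strand that carries the motif. HYOU1 and HSP90B1 each have a further element that is not printed. The HSP90B1 element shown lies in an exon of that gene, and those of PDIA6 and CRELD2 lie within their genes outside exons. Each element has 5 bases on each side and the fixed letters of the motif in capitals, to show the gap that varies between them:
CALR, ERSE, chr19:12938379-12938407, minus strand: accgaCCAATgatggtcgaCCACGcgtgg
XBP1, ERSE, chr22:28800598-28800626, minus strand: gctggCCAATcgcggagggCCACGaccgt
HSP90B1, ERSE, chr12:103930211-103930239, plus strand: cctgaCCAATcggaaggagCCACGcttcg
HSPA5, ERSE, chr9:125241386-125241414, minus strand: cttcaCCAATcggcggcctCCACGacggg
PDIA6, ERSE, chr2:10812848-10812876, minus strand: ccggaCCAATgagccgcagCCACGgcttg
HYOU1, ERSE-II, chr11:119057269-119057289, plus strand: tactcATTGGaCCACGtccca
CRELD2, ERSE, chr22:49918549-49918577, minus strand: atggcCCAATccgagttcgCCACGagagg
HERPUD1, ERSE-II, chr16:56932020-56932040, plus strand: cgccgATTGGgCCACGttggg

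The element of HSPA5 lies 66 bases before the RefSeq start, in the same orientation as the gene. That of CALR lies 225 bases before its own RefSeq start, on the opposite strand. The HSPA5 stretch below runs from 250 bases to 1 base before the RefSeq start. The CALR stretch runs from 250 to 32 bases before it and stops at the first exon base. Both upstream regions are given on the gene's own strand, with the fixed letters of the element in capitals, since HSPA5 is a well-known target of this response and CALR had the largest fall of the 34 genes:
HSPA5, chr9:125241344-125241593, minus strand: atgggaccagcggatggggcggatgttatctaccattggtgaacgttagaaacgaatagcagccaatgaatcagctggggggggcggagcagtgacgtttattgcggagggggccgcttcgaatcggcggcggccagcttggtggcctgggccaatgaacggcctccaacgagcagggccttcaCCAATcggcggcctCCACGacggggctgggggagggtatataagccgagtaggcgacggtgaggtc
CALR, chr19:12938359-12938577, plus strand: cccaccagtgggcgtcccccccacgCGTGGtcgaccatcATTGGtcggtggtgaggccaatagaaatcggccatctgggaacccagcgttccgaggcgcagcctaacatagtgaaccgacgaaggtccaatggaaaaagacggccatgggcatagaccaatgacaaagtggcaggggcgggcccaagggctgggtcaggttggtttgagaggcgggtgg

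All 11 genes with an ERSE or ERSE-II fell in NB4 with the combination, with log2 changes of -2.39 to -0.31 and a median of -1.29. Of all genes tested there, 35.4% rose and 32.8% fell, and 28.6% fell with ATRA and 19.6% with ATO. The 20 genes searched without a match had 7 rises, 7 falls and 6 that did not pass (median 0.06). With ATRA and with ATO, 10 of the 11 fell in NB4, the exception each time being SDF2L1 (0.10 ± 0.144, adjusted p = 0.562 with ATRA and 0.10 ± 0.143, adjusted p = 0.617 with ATO). In HL-60 the combination lowered 7 of the 11 and raised 3 (median -0.27), and of the 20 without a match it raised 13 and lowered 3 (median 0.32). Of all genes tested in HL-60, 30.7% rose and 29.7% fell with the combination. The matched genes include the chaperones and partners HSPA5, HSP90B1, HYOU1, CALR, CANX, CRELD2 and SDF2L1. Match and role therefore overlap, and they were not tested apart. The calls of other genes with an element were not counted. A match is a description of the letters in a window and shows neither binding nor use of the site.

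**Figure D2:**
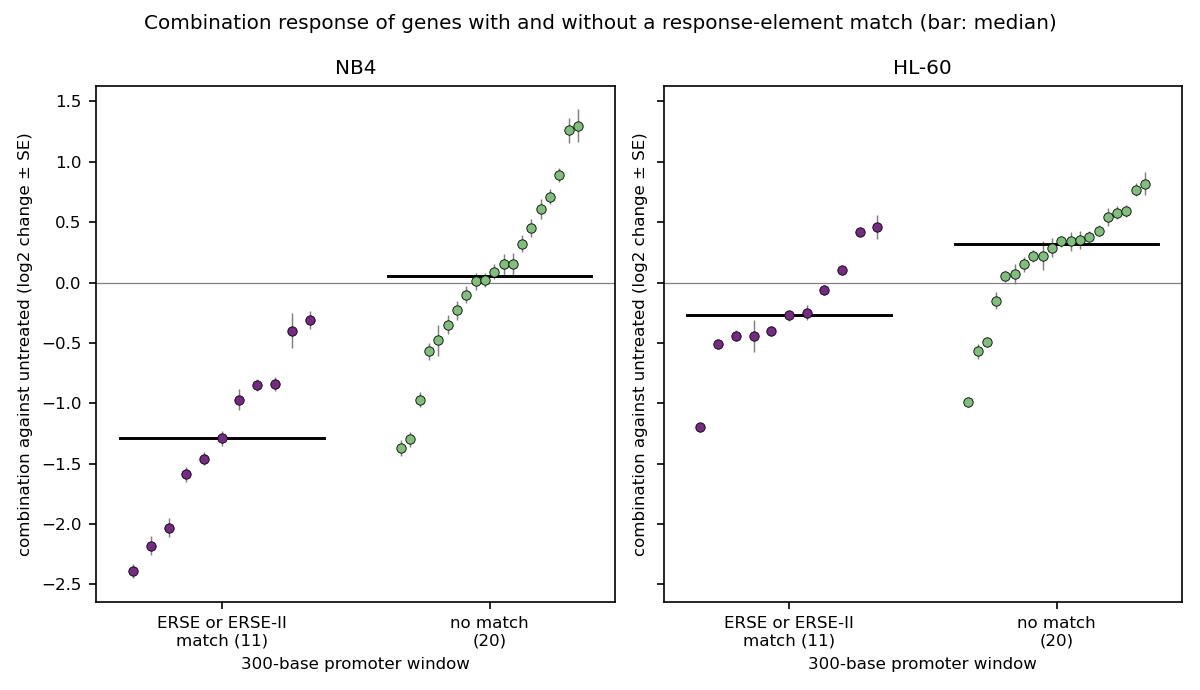
Points give the log2 change (± SE) of each gene with the combination against untreated cells, in NB4 (left) and HL-60 (right), for the 11 genes with an ERSE or ERSE-II match in the 300-base promoter window and the 20 without, and horizontal bars give the medians. All 11 matched genes lie below 0 in NB4 (median -1.29), while in HL-60 they lie on both sides of it (median -0.27). Many of the matched genes are chaperones and partners, so match overlaps with role.

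The chaperones and their partners carried the largest falls in NB4. HSPA5 encodes BiP, the Hsp70 chaperone of the ER lumen that also holds the sensors inactive (chromosome 9 from 125234853 to 125241330, minus strand, GRCh38). Its level was 497, 510 and 506 CPM in NB4 combination libraries, 1150, 1170 and 993 CPM with ATRA and 775, 755 and 805 CPM with ATO, against 1500, 1530 and 1490 CPM in untreated NB4 cells. The 4 groups did not overlap, and every treated library lay below every untreated one. The log2 change was -1.59 ± 0.0598 with the combination (adjusted p = 4.05e-16), -0.43 ± 0.0584 with ATRA and -0.97 ± 0.0589 with ATO. In HL-60 the gene had 1210, 1170 and 1190 CPM in combination libraries, 1050, 1040 and 1040 CPM with ATRA and 568, 605 and 618 CPM with ATO, against 874, 917 and 914 CPM in untreated cells. Here the combination and ATRA libraries lay above all untreated ones and the ATO libraries below them, with log2 changes of 0.42 ± 0.0376, 0.22 ± 0.0376 and -0.58 ± 0.0378.

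HSP90B1 encodes GRP94, the ER member of the Hsp90 family, which folds toll-like receptors and integrins (chromosome 12 from 103930107 to 103953645, plus strand). NB4 combination libraries held 500, 466 and 492 CPM, ATRA libraries 1130, 1330 and 1000 CPM and ATO libraries 969, 968 and 961 CPM, against 2180, 1930 and 1820 CPM in untreated cells. All 9 treated libraries lay below the 3 untreated ones, at log2 changes of -2.03 ± 0.0809, -0.76 ± 0.0783 and -1.05 ± 0.0787. In HL-60 the combination libraries held 805, 702 and 787 CPM, against 1040, 1010 and 1100 CPM in untreated cells (-0.44 ± 0.0453), and the smaller fall again left the groups apart. HYOU1, a large Hsp70-related exchange factor for BiP, had 189, 191 and 167 CPM in NB4 combination libraries, against 444, 430 and 455 CPM in untreated ones (-1.29 ± 0.0609). In HL-60 it had 188, 193 and 191 CPM with the combination, against 259, 254 and 250 CPM (-0.40 ± 0.0418).

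CALR and CANX encode calreticulin and calnexin, the lectins that hold glycoproteins while they fold. CALR had the highest level per kilobase of exon of the 34 genes in untreated NB4 cells (2090 CPM per kilobase, followed by 421 for HSP90B1 and 386 for HSPA5), and also the largest fall. It lies on chromosome 19 from 12938578 to 12944489 on the plus strand. Its level was 1130, 1140 and 996 CPM in NB4 combination libraries, 2190, 1970 and 2010 CPM with ATRA and 3530, 3390 and 3590 CPM with ATO, against 5510, 5650 and 5860 CPM in untreated cells. The combination left it at 0.191 of the untreated level (log2 change -2.39 ± 0.0602, adjusted p = 3.96e-19). In HL-60 the order of the groups was the same, with 1310, 1370 and 1310 CPM in combination, 1730, 1720 and 1720 CPM in ATRA and 2320, 2340 and 2310 CPM in ATO libraries, against 2980, 3250 and 3050 CPM in untreated cells. No 2 of the 4 HL-60 groups overlapped, and the combination change was -1.20 ± 0.036. CANX fell with the combination in NB4: 927, 888 and 883 CPM, against 1590, 1660 and 1590 CPM in untreated cells (-0.85 ± 0.0529). In HL-60 its combination libraries overlapped the untreated ones (1440, 1310 and 1370 CPM, against 1240, 1300 and 1370 CPM), and a small rise (0.10 ± 0.0399) was lost without HL-60 untreated replicate 1 or 2, or HL-60 combination replicate 1 or 3 (adjusted p = 0.074 to 0.222).

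The J-domain proteins, which hand unfolded chains to BiP, went different ways. DNAJB9 (ERdj4), a classic target of spliced XBP1, had 23.9, 22.6 and 22.5 CPM in HL-60 combination libraries, against 13.4, 14 and 12.5 CPM with ATRA, 10.5, 13.5 and 13.4 CPM with ATO and 12.7, 13.4 and 13.3 CPM in untreated cells. All 3 combination libraries lay above the other 9, and the rise over untreated was 0.82 ± 0.095, while neither drug alone passed the test (ATRA 0.03 ± 0.0962, adjusted p = 0.855; ATO -0.07 ± 0.0965, adjusted p = 0.66). In NB4 the same gene had 9.19, 7.05 and 10.1 CPM with the combination, 8.27, 6.93 and 9.32 CPM with ATRA and 6.96, 7.51 and 6.72 CPM with ATO, against 11.8, 12.5 and 12 CPM in untreated cells. All 9 treated NB4 libraries lay below the untreated ones (-0.48 ± 0.131, -0.55 ± 0.133 and -0.79 ± 0.133). DNAJC3 (p58IPK) rose with the combination in both lines, with 146, 137 and 157 CPM in NB4, against 116, 120 and 114 CPM in untreated NB4 (0.32 ± 0.0696). In HL-60 it had 136, 124 and 131 CPM with the combination, against 71, 78.5 and 82.2 CPM (0.77 ± 0.0562). DNAJB11 (ERdj3) had 78.9, 76.4 and 81.1 CPM in HL-60 combination libraries, against 64.7, 69.6 and 70.7 CPM in untreated HL-60 (0.22 ± 0.0535). In NB4 it had 66.5, 65.3 and 76.2 CPM with the combination, against 74.1, 77.4 and 70.5 CPM (-0.10 ± 0.0737, adjusted p = 0.223), and it rose with ATRA (0.27 ± 0.0737). Its small falls with ATO were lost without NB4 untreated replicate 2, or NB4 ATO replicate 1 or 3 (adjusted p = 0.0518 to 0.0911), and in HL-60 without HL-60 untreated replicate 2 or 3, or HL-60 ATO replicate 1 (adjusted p = 0.0566 to 0.0764).

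MANF and CRELD2 encode small ER proteins that are induced by ER stress, and SDF2L1 a partner of the J-domain proteins. MANF had 47.2, 49.2 and 48.1 CPM in NB4 combination libraries, 86.1, 78 and 75.7 CPM with ATRA and 86.6, 83.2 and 82.9 CPM with ATO, against 122, 124 and 125 CPM in untreated cells. The combination change was -1.37 ± 0.0638 in NB4 and -0.15 ± 0.0723, adjusted p = 0.0865 in HL-60, where the combination libraries (49.7, 62.6 and 56 CPM) overlapped the untreated ones (58.3, 64.5 and 65.9 CPM). Without HL-60 untreated replicate 1 or HL-60 combination replicate 2 the HL-60 fall passed (adjusted p = 0.0379 and 0.00325). CRELD2 went opposite ways in the lines. It had 10.7, 10.7 and 9.78 CPM with the combination in NB4, against 20, 19.5 and 21 CPM in untreated cells (-0.97 ± 0.0893), and 17.9, 21.4 and 17.5 CPM in HL-60, against 13.7, 14.3 and 14 CPM (0.46 ± 0.0979). With ATRA alone the contrast was the same (-0.60 ± 0.0887 in NB4 and 0.59 ± 0.0968 in HL-60). SDF2L1, at 4.87 to 13 CPM over all libraries, fell with the combination in NB4 (-0.40 ± 0.146) and in HL-60 (-0.44 ± 0.133). The NB4 call was lost without NB4 untreated replicate 1 or 2, or NB4 combination replicate 1 or 2 (adjusted p = 0.0609 to 0.118), and the HL-60 call without HL-60 untreated replicate 1 (adjusted p = 0.051).

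**Figure D3:**
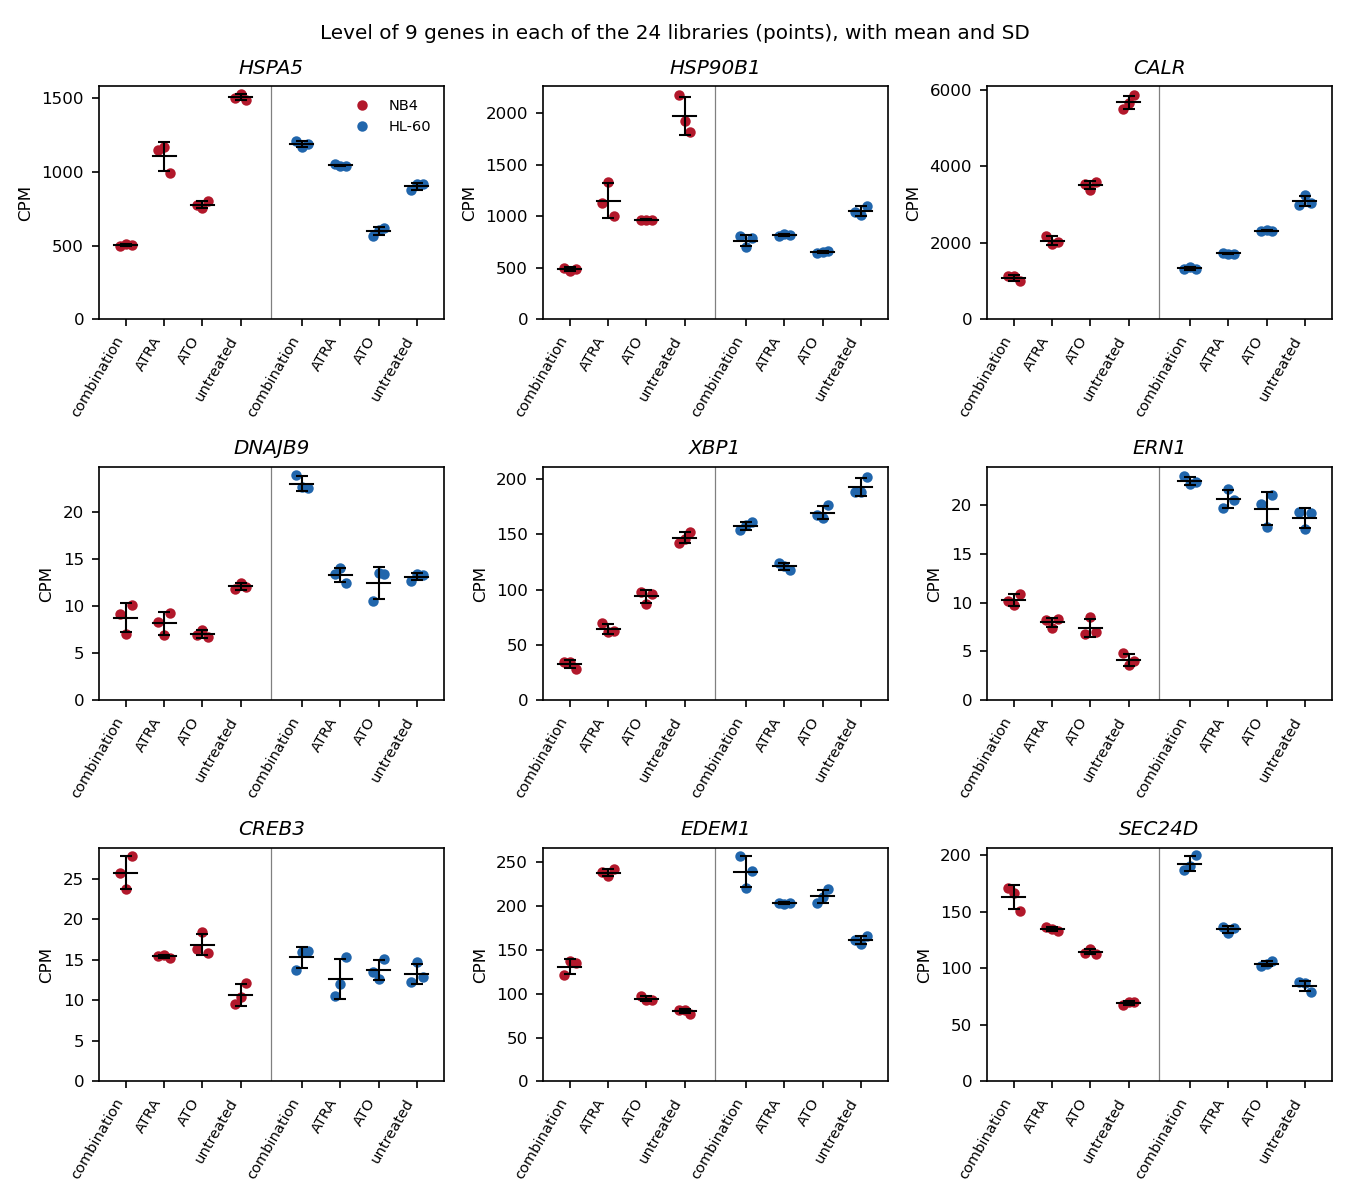
Each panel shows the level of a gene in CPM (vertical axis, from 0) in the 3 libraries of each group (points), with the mean (line) and SD (bars), for NB4 (red) and HL-60 (blue). HSPA5 is lowest in NB4 with the combination, at 497 to 510 CPM, while the HL-60 combination libraries at 1170 to 1210 CPM lie above all untreated HL-60 libraries.

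The disulfide enzymes fell together in NB4: all 5 were lower with the combination, and all 5 with ATO, although the ATO call of ERO1A was lost with libraries scaled by their totals alone. PDIA6 (P5) had 211, 218 and 207 CPM in NB4 combination libraries, against 583, 581 and 577 CPM in untreated ones (-1.46 ± 0.055). PDIA4 (ERp72) had 207, 199 and 180 CPM, against 477, 468 and 488 CPM (-1.30 ± 0.0605). Both also fell in HL-60, where PDIA6 had 271, 277 and 273 CPM with the combination, against 383, 404 and 398 CPM in untreated cells (-0.51 ± 0.0391). PDIA4 had 212, 224 and 226 CPM there, against 311, 315 and 313 CPM (-0.49 ± 0.0409). None of these groups overlapped. PDIA3 (ERp57), the isomerase that works with calreticulin and calnexin, had 658, 688 and 684 CPM with the combination in NB4, against 1190, 1240 and 1230 CPM (-0.86 ± 0.0505). Its HL-60 combination libraries (522, 512 and 520 CPM, against 539, 561 and 554 CPM in untreated cells) lay just below the untreated ones but did not pass (-0.07 ± 0.0388, adjusted p = 0.115). Its small fall with ATRA in NB4 (-0.13 ± 0.0502) was lost without NB4 untreated replicate 2 or 3, or NB4 ATRA replicate 3 (adjusted p = 0.0603 to 0.0803).

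P4HB and ERO1A did not fall with ATRA in NB4. P4HB is protein disulfide isomerase itself and ERO1A the oxidase that re-oxidises it. P4HB had 892, 924 and 775 CPM in NB4 combination libraries, 1650, 1460 and 1670 CPM with ATRA and 1380, 1380 and 1410 CPM with ATO, against 1640, 1640 and 1750 CPM in untreated cells. The combination fall was -0.97 ± 0.0652, while ATRA alone did not pass (-0.05 ± 0.0646, adjusted p = 0.501). In HL-60 the combination libraries had 876, 956 and 842 CPM, against 1790, 1880 and 1710 CPM in untreated cells (-0.99 ± 0.0432). ERO1A rose with ATRA in NB4, with 256, 244 and 277 CPM, against 189, 197 and 193 CPM in untreated cells (0.44 ± 0.0803). In HL-60 it fell with ATRA, with 97.5, 99.1 and 95 CPM, against 151, 143 and 157 CPM (-0.62 ± 0.0613). With the combination it was lower in both lines (-0.35 ± 0.0804 in NB4 and -0.57 ± 0.0616 in HL-60). PDIA6 shares 25.19% of its exon bases with ATP6V1C2 on the opposite strand, and PDIA3 shares 14.79% with ELL3. Whether counting used strand is not given in the sources used here, so reads of such pairs cannot be told apart.

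Of the 3 sensors, ERN1 alone passed the test in NB4 with the combination, and it rose. ERN1 encodes IRE1 and lies on chromosome 17 from 64039142 to 64130819 on the minus strand. It was expressed at 10.2, 9.73 and 10.9 CPM in NB4 combination libraries, 8.17, 7.44 and 8.32 CPM with ATRA and 6.8, 8.5 and 6.97 CPM with ATO, against 4.82, 3.62 and 3.98 CPM in untreated cells. Every treated library lay above every untreated one, and the combination left it at 2.47 times the untreated level (log2 change 1.30 ± 0.134, adjusted p = 1.36e-08). Untreated HL-60 cells expressed more of it than untreated NB4 cells (NB4 over HL-60 -2.17 ± 0.109). HL-60 libraries held 22.9, 22.1 and 22.3 CPM with the combination, 19.7, 21.6 and 20.5 CPM with ATRA and 20.1, 17.7 and 21 CPM with ATO, against 19.3, 17.5 and 19.2 CPM in untreated cells. In HL-60 the combination alone passed (0.29 ± 0.0811).

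ATF6 and EIF2AK3 rose with the combination in HL-60 and did not pass in NB4. ATF6 had 177, 164 and 171 CPM in HL-60 combination libraries, against 139, 133 and 139 CPM in untreated ones (0.34 ± 0.0451). In NB4 it had 81, 85.4 and 84 CPM with the combination, against 79.9, 78 and 75.5 CPM (0.09 ± 0.0634, adjusted p = 0.201). The 2 NB4 groups did not overlap. EIF2AK3, which encodes PERK, had 34, 34.5 and 34.6 CPM in HL-60 combination libraries, against 28.6, 24.8 and 29.2 CPM (0.34 ± 0.0763). In NB4 it had 21.1, 21.2 and 21.8 CPM, against 19, 18.6 and 19.7 CPM (0.15 ± 0.0893, adjusted p = 0.144). With libraries scaled by their totals alone both NB4 changes passed as rises (0.17 and 0.23, adjusted p = 0.0228 and 0.0334). EIF2AK3 shares 14.37% of its exon bases with an antisense gene.

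XBP1, the transcription factor whose mRNA is spliced by IRE1, fell in NB4 with all 3 treatments. It lies on chromosome 22 from 28794555 to 28800597 on the minus strand. NB4 combination libraries held 34.5, 34.6 and 28.7 CPM, ATRA libraries 69.6, 61.4 and 62.6 CPM and ATO libraries 98.1, 87 and 96.4 CPM, against 142, 146 and 152 CPM in untreated cells. The 4 groups did not overlap, and the changes were -2.18 ± 0.0794, -1.17 ± 0.0766 and -0.66 ± 0.0753. In HL-60 ATRA alone gave the lowest level, 124, 121 and 118 CPM, with 154, 158 and 161 CPM in combination and 167, 165 and 176 CPM in ATO libraries, against 188, 188 and 202 CPM in untreated cells. The HL-60 changes were -0.27 ± 0.0464 with the combination, -0.66 ± 0.0466 with ATRA and -0.17 ± 0.0462 with ATO. Gene counts do not separate the spliced from the unspliced XBP1 mRNA, so these values say nothing of splicing. CREB3 encodes Luman, a membrane-bound factor that is cleaved in the Golgi. In NB4 it had 25.7, 23.8 and 27.9 CPM with the combination, 15.5, 15.6 and 15.2 CPM with ATRA and 16.4, 18.4 and 15.9 CPM with ATO, against 9.51, 10.4 and 12.1 CPM in untreated cells. Each treatment raised it (1.26 ± 0.101, 0.55 ± 0.103 and 0.65 ± 0.101). In HL-60 it passed with no treatment (0.22 ± 0.12, adjusted p = 0.124 for the combination), and its groups overlapped.

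The 8 degradation genes held 0.0961%, 0.0977% and 0.0975% of all counts in NB4 combination libraries, against 0.0634%, 0.0651% and 0.0653% in untreated ones. In HL-60 the share was 0.0937%, 0.0899% and 0.091% with the combination, against 0.0704%, 0.0695% and 0.0715%. The groups did not overlap in either line. With the combination 4 of the 8 rose and HERPUD1 fell in NB4, a called share of 62.5%, against 68.2% of all genes tested. In HL-60 6 rose and HERPUD1 fell, a called share of 87.5%, against 60.4%.

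EDEM1, a mannosidase-like protein that marks misfolded glycoproteins for removal (chromosome 3 from 5187646 to 5219957, plus strand), had the largest rise of the module. It stood at 239, 234 and 242 CPM in NB4 ATRA libraries, against 81.1, 81.1 and 77.1 CPM in untreated cells (log2 change 1.60 ± 0.0623, adjusted p = 1.11e-15). With the combination it stood lower than with ATRA, at 121, 137 and 135 CPM (0.71 ± 0.0615 over untreated), and with ATO at 97.2, 92.7 and 93.2 CPM (0.23 ± 0.0614). No NB4 groups overlapped. In HL-60 all treated libraries lay above the untreated ones, with 257, 221 and 240 CPM in combination, 204, 202 and 204 CPM in ATRA and 204, 210 and 219 CPM in ATO libraries, against 161, 157 and 166 CPM in untreated cells. Those changes were 0.59 ± 0.0508, 0.34 ± 0.0507 and 0.40 ± 0.0507. EDEM2, which trims the first mannose of such glycans, had 37, 41 and 35.2 CPM with the combination and 41.2, 39.6 and 43.2 CPM with ATRA in NB4, against 22.3, 25 and 26.7 CPM (0.61 ± 0.0819 and 0.77 ± 0.0822). In HL-60 it rose with ATRA (0.31 ± 0.0787) and did not pass with the combination, with 23.5, 24.1 and 25.1 CPM, against 21.6, 25.9 and 22.5 CPM (0.07 ± 0.0799, adjusted p = 0.476).

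OS9, the lectin that delivers trimmed glycoproteins to the ubiquitin ligase, rose in all 3 treatments of both lines. In NB4 it had 387, 397 and 377 CPM with the combination, 377, 340 and 383 CPM with ATRA and 255, 242 and 253 CPM with ATO, against 197, 204 and 220 CPM in untreated cells (0.89 ± 0.061, 0.84 ± 0.061 and 0.26 ± 0.0607). In HL-60 it had 256, 270 and 254 CPM with the combination, against 195, 200 and 189 CPM (0.43 ± 0.0439). The ligase itself, SYVN1 (HRD1), rose with the combination in NB4, with 78.8, 69.2 and 65.3 CPM, against 50.9, 50.1 and 54.4 CPM (0.45 ± 0.0746). In HL-60 it had 54.7, 65.3 and 53.7 CPM, against 42.2, 40.8 and 38.2 CPM (0.54 ± 0.0735). Its scaffold SEL1L rose in HL-60, with 253, 217 and 241 CPM in combination libraries, against 162, 150 and 170 CPM (0.58 ± 0.0546), while NB4 combination libraries held 128, 122 and 136 CPM, against 133, 128 and 121 CPM (0.01 ± 0.0708, adjusted p = 0.922).

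The derlins, membrane proteins through which substrates leave the ER, also rose in HL-60. DERL1 had 115, 114 and 117 CPM with the combination, against 78.4, 79.7 and 81.1 CPM (0.55 ± 0.0497), and DERL2 changed by 0.35 ± 0.0741. In NB4 neither passed: DERL1 had 57.4, 60.5 and 58 CPM with the combination, against 51.3, 56.4 and 51.4 CPM (0.14 ± 0.0654, adjusted p = 0.0717), and DERL2 changed by 0.15 ± 0.0935, adjusted p = 0.151. The small DERL1 rises in HL-60 with ATRA (0.13 ± 0.0496) and ATO (0.15 ± 0.0496) were lost without HL-60 untreated replicate 1, 2 or 3, or HL-60 ATRA replicate 1 or 2 (adjusted p = 0.0539 to 0.185), and for ATO without HL-60 untreated replicate 1 or 2, or HL-60 ATO replicate 1 or 3 (adjusted p = 0.0602 to 0.168). HERPUD1 (HERP), a stress-induced organiser of the ligase complex, was the member of this group that fell. It had 32.8, 37.5 and 35.4 CPM in NB4 combination, 29.1, 28.2 and 27.5 CPM in ATRA and 37.4, 36.4 and 36 CPM in ATO libraries, against 45.5, 44.3 and 40.5 CPM in untreated cells. All treated NB4 libraries lay below the untreated ones (-0.31 ± 0.0747, -0.60 ± 0.0757 and -0.26 ± 0.0746). In HL-60 it fell with the combination (-0.25 ± 0.0647), and its fall with ATRA (-0.19 ± 0.0642) was lost without HL-60 untreated replicate 1 or 2, or HL-60 ATRA replicate 1 or 3 (adjusted p = 0.0526 to 0.0784).

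Of the translocation and export genes, SEC24D rose in every treatment of both lines. SEC24D, a cargo adaptor of COPII vesicles (chromosome 4 from 118722823 to 118838683, minus strand), had 171, 167 and 151 CPM in NB4 combination, 137, 135 and 133 CPM in ATRA and 114, 117 and 113 CPM in ATO libraries, against 67.4, 70.1 and 70 CPM in untreated cells. The changes were 1.23 ± 0.0614, 0.98 ± 0.0613 and 0.72 ± 0.061, and no groups overlapped. In HL-60 it had 187, 191 and 200 CPM in combination, 137, 131 and 136 CPM in ATRA and 102, 104 and 107 CPM in ATO libraries, against 87.9, 86.7 and 79.5 CPM (1.20 ± 0.0506, 0.67 ± 0.0504 and 0.32 ± 0.0504). Again no groups overlapped. SERP1 (RAMP4) and SSR1 (TRAP alpha), which sit beside the SEC61 channel, fell in NB4 with 126, 124 and 130 CPM for SERP1 in combination libraries, against 222, 233 and 219 CPM (-0.84 ± 0.0589). SSR1 had 147, 138 and 154 CPM, against 221, 228 and 198 CPM (-0.57 ± 0.0697). In HL-60 neither passed with the combination. SERP1 had 263, 253 and 266 CPM there, against 262, 282 and 279 CPM (-0.06 ± 0.0419, adjusted p = 0.26), and SSR1 had 319, 287 and 292 CPM, against 282, 287 and 309 CPM (0.05 ± 0.0475, adjusted p = 0.375). With the single drugs SERP1 fell in both lines (-0.62 ± 0.0588 with ATRA and -0.41 ± 0.0585 with ATO in NB4, -0.12 ± 0.0418 and -0.16 ± 0.0418 in HL-60). SSR1 fell with both drugs in NB4 (-0.31 ± 0.0696 with ATRA and -0.27 ± 0.0694 with ATO) and with ATRA in HL-60 (-0.13 ± 0.0474). The HL-60 ATRA call of SERP1 was lost without HL-60 untreated replicate 2 or 3, or HL-60 ATRA replicate 1, 2 or 3 (adjusted p = 0.0576 to 0.0991), and that of SSR1 without HL-60 untreated replicate 3, or HL-60 ATRA replicate 1, 2 or 3 (adjusted p = 0.0698 to 0.167). The channel subunit SEC61A1 rose in HL-60 with 453, 493 and 471 CPM, against 367, 383 and 355 CPM (0.38 ± 0.0437), while NB4 combination libraries held 315, 320 and 283 CPM, against 298, 300 and 304 CPM (0.02 ± 0.0584, adjusted p = 0.805). SEC61B, the beta subunit, fell in NB4, with 40.2, 47.4 and 43.4 CPM, against 47.5, 55.3 and 50.2 CPM (-0.23 ± 0.0798). It rose in HL-60, with 61.9, 65.1 and 62.3 CPM, against 56.3, 61.2 and 54.9 CPM (0.15 ± 0.061), but the NB4 call was lost without NB4 untreated replicate 2, or NB4 combination replicate 1 (adjusted p = 0.102 to 0.113) and the HL-60 call without HL-60 untreated replicate 1 or 3, or HL-60 combination replicate 2 or 3 (adjusted p = 0.0576 to 0.154).

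Set against each single drug, 8 of the 11 chaperones and partners stood lower in NB4 with the combination than with either drug alone. Against ATRA it lowered 18 of the 34 genes and raised 5 (38% of all genes passed, 16.8% higher and 21.2% lower), with 10 higher and 14 lower when libraries were scaled by their totals alone, a scaling that moved the median of all genes by 0.144. Against ATO it lowered 16 and raised 9 (56.9% of all genes passed, 28.6% higher and 28.3% lower). HSPA5, HSP90B1, HYOU1, MANF, CRELD2, CALR, CANX, PDIA3, PDIA4, PDIA6, P4HB, XBP1, SSR1, SERP1 and SDF2L1 were lower in combination libraries than with either drug. The SDF2L1 call against ATRA was lost without NB4 combination replicate 1 (adjusted p = 0.0713) and with totals alone (adjusted p = 0.0559). With totals alone the calls against ATRA of CRELD2, SSR1 and SERP1 were also lost (adjusted p = 0.0511, 0.216 and 0.395), and that of SERP1 without NB4 ATRA replicate 1 (adjusted p = 0.0597). CREB3 was higher than with either (0.71 ± 0.0989 against ATRA and 0.62 ± 0.0978 against ATO), as was SEC24D. ERN1 was higher than with ATO (0.47 ± 0.128) and with ATRA (0.34 ± 0.128), the difference to ATRA with adjusted p = 0.0584 when the batch number was added as a block, and lost without NB4 ATRA replicate 1 or 2, or NB4 combination replicate 1 or 3 (adjusted p = 0.0639 to 0.106).

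In HL-60 the combination raised 16 of the 34 genes and lowered 7 against ATRA (43.9% of all genes passed, 22% higher and 21.9% lower), and raised 22 and lowered 6 against ATO (54.5% of all genes passed, 27.5% higher and 27% lower). Under scaling by totals alone the split against ATO was 16 higher and 8 lower, with the median of all genes moved by -0.101. The largest difference from ATO was that of HSPA5 (1.00 ± 0.038), whose HL-60 ATO libraries were its lowest. SEC24D, DNAJB9 and DNAJC3 followed (0.89 ± 0.0501, 0.89 ± 0.095 and 0.84 ± 0.0562). Among those that fell, P4HB, CALR, PDIA4 and PDIA6 stood lower in the combination than with either drug (-0.65 ± 0.043 against ATRA and -0.94 ± 0.0431 against ATO for P4HB).

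The interaction of the drugs is the combination change less the sum of the ATRA and ATO changes, on the log2 scale. In HL-60 the combination lay above that sum for 20 of the 34 genes and lay below it for 3, where 32.5% of all genes passed (14.4% above and 18.1% below). With libraries scaled by their totals alone the split was 15 above and 4 below, with the median of all genes moved by -0.055. In the fit reported here the median was 0.22, against -0.06 over all genes. Those above the sum included 8 of the 11 chaperones and partners and all 5 translocation and export genes. HSPA5 (0.78 ± 0.0532), MANF (0.63 ± 0.103), DNAJC3 (0.60 ± 0.0793), XBP1 (0.57 ± 0.0657) and HSP90B1 (0.57 ± 0.064) had the largest values after DNAJB9 (0.86 ± 0.135). P4HB (-0.60 ± 0.0605), EDEM2 (-0.36 ± 0.112) and OS9 (-0.25 ± 0.0619) lay below the sum. Of these calls, SEC24D was lost without HL-60 untreated replicate 1 or 2, HL-60 ATRA replicate 2, HL-60 ATO replicate 1, or HL-60 combination replicate 3 (adjusted p = 0.0597 to 0.0829), SSR1 without HL-60 untreated replicate 3, HL-60 ATRA replicate 3, HL-60 ATO replicate 1 or 2, or HL-60 combination replicate 1 (adjusted p = 0.0563 to 0.0781), SEC61B without HL-60 untreated replicate 2, HL-60 ATRA replicate 1 or 3, or HL-60 ATO replicate 1 (adjusted p = 0.0515 to 0.0916) and EDEM2 without HL-60 ATO replicate 1 (adjusted p = 0.0514). PDIA6 (0.14 ± 0.0552) was lost without HL-60 untreated replicate 2 or 3, HL-60 ATRA replicate 1, 2 or 3, HL-60 ATO replicate 1, 2 or 3, or HL-60 combination replicate 2 or 3 (adjusted p = 0.0564 to 0.12), and SEL1L (0.25 ± 0.0769) without HL-60 untreated replicate 3 (adjusted p = 0.0544).

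In NB4 the combination lay below the sum for 11 of the 34 genes and above it for 2, where 18.7% of all genes passed (6.14% above and 12.5% below; median -0.17, against -0.06 over all genes). All 5 disulfide enzymes lay below it, P4HB (-0.63 ± 0.0915), ERO1A (-0.52 ± 0.114), PDIA3 (-0.44 ± 0.071), PDIA6 (-0.39 ± 0.0762) and PDIA4 (-0.28 ± 0.0842). EDEM1 lay farthest below it (-1.12 ± 0.0865), and its combination libraries lay between those of ATO and ATRA. DNAJB9 (0.86 ± 0.188) and HERPUD1 (0.55 ± 0.106) lay above the sum. The NB4 count was 8 of 34 without NB4 untreated replicate 2, without NB4 ATRA replicate 1 or without NB4 ATO replicate 3, and 8 to 16 over all libraries left out in turn. The call of XBP1 was lost without NB4 untreated replicate 1 or 2, NB4 ATRA replicate 1, NB4 ATO replicate 1 or 3, or NB4 combination replicate 3 (adjusted p = 0.0648 to 0.0956), and that of PDIA4 without NB4 untreated replicate 1 or 2, NB4 ATRA replicate 1, NB4 ATO replicate 3, or NB4 combination replicate 3 (adjusted p = 0.061 to 0.0832). CALR (-0.23 ± 0.0809) was lost without NB4 untreated replicate 1, 2 or 3, NB4 ATRA replicate 1, NB4 ATO replicate 1, 2 or 3, or NB4 combination replicate 3 (adjusted p = 0.0549 to 0.148), and also with the batch block (adjusted p = 0.062). SDF2L1 (-0.61 ± 0.204) was lost without NB4 untreated replicate 1, 2 or 3, NB4 ATRA replicate 1 or 3, NB4 ATO replicate 3, or NB4 combination replicate 1 or 2 (adjusted p = 0.056 to 0.134). EDEM2 (-0.37 ± 0.115) was lost without NB4 untreated replicate 1 or 2, NB4 ATRA replicate 1 or 3, NB4 ATO replicate 1, 2 or 3, or NB4 combination replicate 1 or 3 (adjusted p = 0.0545 to 0.122).

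**Figure D4:**
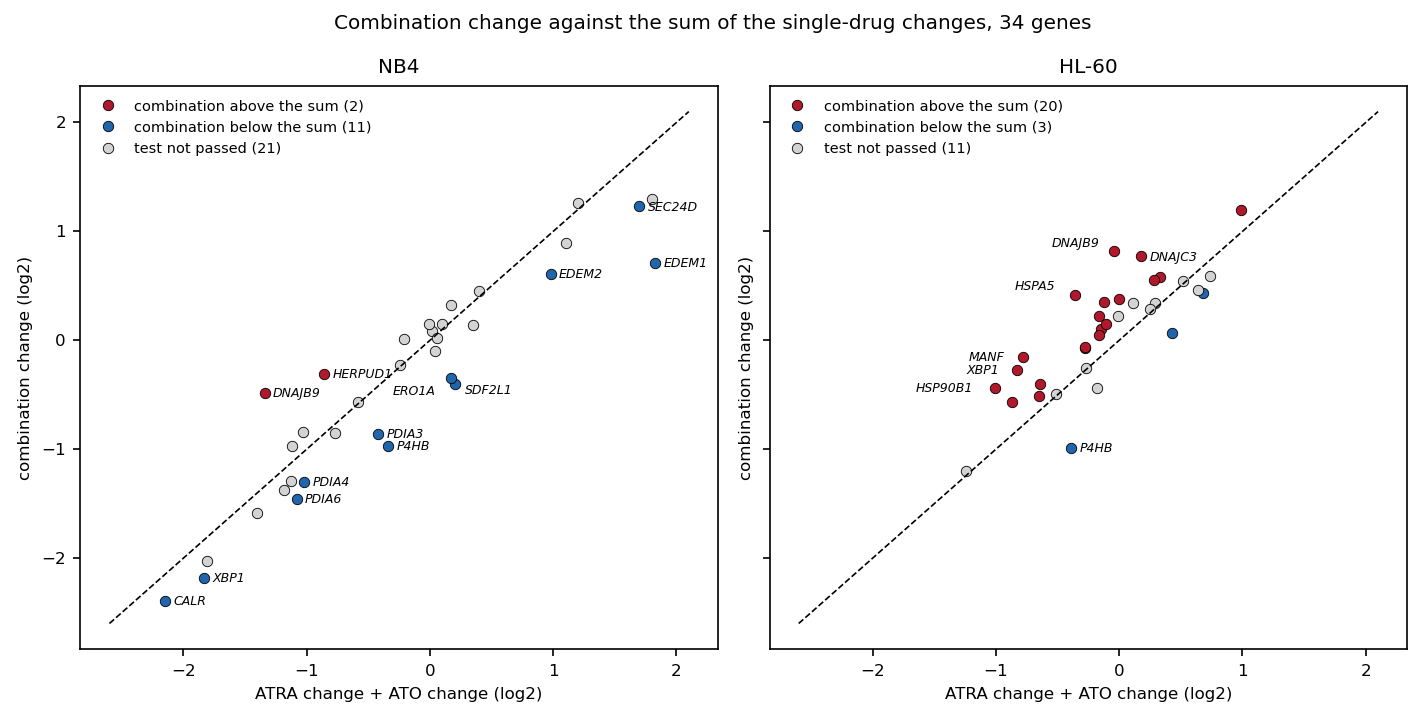
Each point is 1 of the 34 genes, with the sum of its ATRA and ATO log2 changes on the horizontal axis and its combination log2 change on the vertical axis, for NB4 (left) and HL-60 (right); the dashed line is equality and colours mark an adjusted p below 0.05 for the interaction. In HL-60 20 genes lie above the line and 3 below it among those that passed, and in NB4 2 lie above and 11 below.

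Without treatment 8 of the 11 chaperones and partners and 4 of the 5 disulfide enzymes were higher in NB4 than in HL-60 cells, and all 3 sensors were lower. Of the 34 genes 14 were higher and 15 lower in untreated NB4 than in untreated HL-60 libraries, where 63.2% of all genes passed (29.1% higher and 34% lower). Scaled by totals alone the split was 17 higher and 12 lower, with the median of all genes moved by 0.15. PDIA3 was the most raised in NB4 (1.15 ± 0.042), followed by MANF (0.98 ± 0.0677), HSP90B1 (0.91 ± 0.0691) and CALR (0.88 ± 0.0479). ERN1 was the most lowered (-2.17 ± 0.109), followed by EDEM1 (-1.02 ± 0.0555), ATF6 (-0.81 ± 0.0513) and DERL1 (-0.59 ± 0.0543). Per kilobase of exon, CALR was the most abundant of the 34 in both lines (2090 CPM per kilobase in untreated NB4 and 1140 in untreated HL-60), and ERN1 the least (0.381 in NB4 and 1.72 in HL-60). The batch block was numbered within each line, so under it this comparison sets a single batch of NB4 against a single batch of HL-60. The calls of SDF2L1, CREB3 and SEC61B were lost there (adjusted p = 0.0793, 0.379 and 0.358). Because line and block cannot be separated in that fit, these losses are no check of the line difference.

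The difference between the responses of the 2 lines was tested in a fit of all 24 libraries. With the combination 25 of the 34 genes responded differently, 21 of them lower in NB4, where 47.5% of all genes passed (24.9% higher and 22.7% lower in NB4). The median difference was -0.37, against 0.11 over all genes, and with totals alone, which moved the median of all genes by 0.136, the split was 8 higher and 18 lower. HSPA5 differed most (-1.98 ± 0.0694, adjusted p = 1.06e-20), followed by XBP1 (-1.88 ± 0.0908), HSP90B1 (-1.56 ± 0.0976), CRELD2 (-1.40 ± 0.13) and DNAJB9 (-1.27 ± 0.165). The 4 with a higher response in NB4 were CREB3 (1.07 ± 0.163), ERN1 (1.04 ± 0.148), EDEM2 (0.56 ± 0.113) and OS9 (0.49 ± 0.0725). Among the 9 without a called difference, SEC24D had a difference of 0.05 ± 0.0745, adjusted p = 0.626 (95% interval -0.10 to 0.20) and P4HB one of 0.05 ± 0.0797, adjusted p = 0.659 (95% interval -0.11 to 0.21).

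Calls in opposite directions in the lines were found for 5 genes with the combination (HSPA5, DNAJB9, CRELD2, CANX and SEC61B) and for 3 with ATRA (HSPA5, CRELD2 and ERO1A), each with a called difference between the lines. The 5 were 3 (HSPA5, DNAJB9 and CRELD2) without HL-60 untreated replicate 1, without HL-60 combination replicate 3 or with totals alone, since the HL-60 calls of CANX and SEC61B were then lost. With ATO there were none, and 15 genes were called in the same direction (3 higher and 12 lower). The shares of all genes called in opposite directions or in the same direction in the lines were not counted. The ATRA responses differed for 24 genes, 9 higher and 15 lower in NB4 (34.5% of all genes passed, 17.7% higher and 16.8% lower). EDEM1 (1.24 ± 0.0774) and ERO1A (1.05 ± 0.107) had the largest differences upward in NB4 with ATRA, and CRELD2 the largest downward (-1.21 ± 0.129). The ATO responses differed for 12 genes, 3 higher and 9 lower in NB4 (13.1% of all genes passed, 7.11% higher and 6% lower), or 4 higher and 6 lower with totals alone. Those 3 were ERN1 (0.77 ± 0.149), CREB3 (0.62 ± 0.164) and SEC24D (0.43 ± 0.0748). The interaction itself also differed between the lines for 17 genes, 1 higher and 16 lower in NB4 (14.4% of all genes passed, 6.16% higher and 8.24% lower), a comparison added after the first results were seen.

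**Figure D5:**
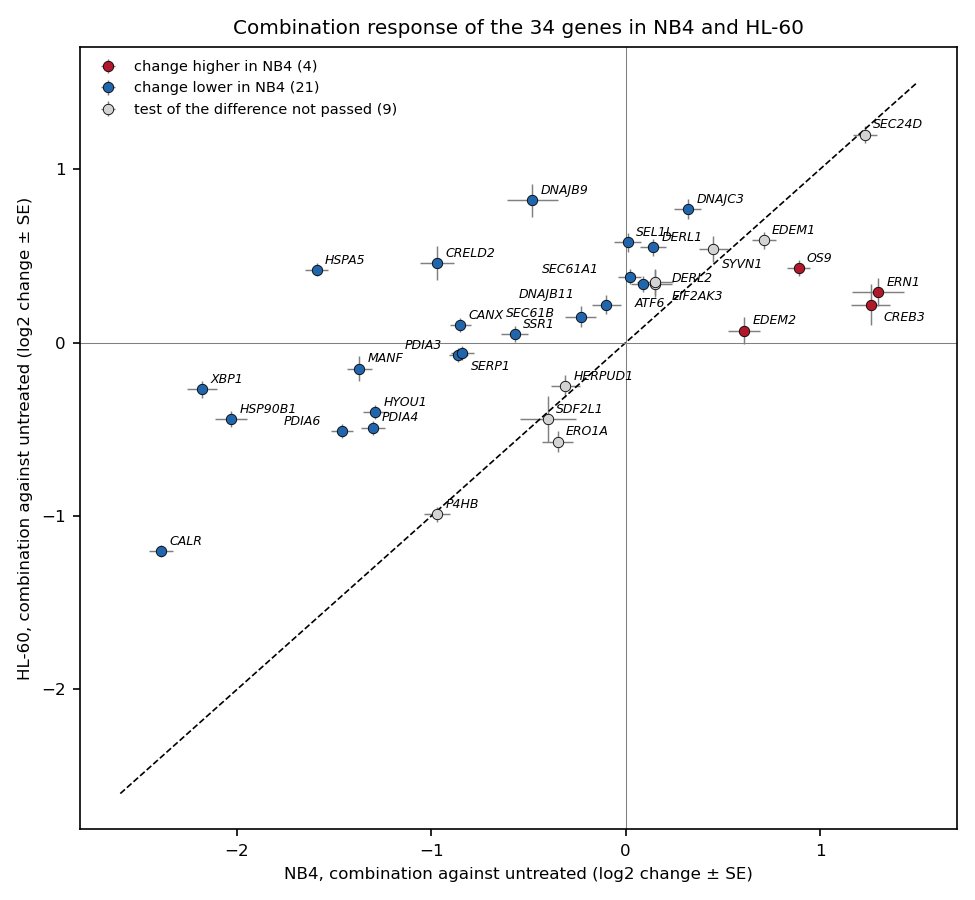
Each point is 1 of the 34 genes, with its log2 change (± SE) with the combination in NB4 on the horizontal axis and in HL-60 on the vertical axis; the dashed line is equality, and colours mark an adjusted p below 0.05 for the difference between the lines. The 21 genes with a lower response in NB4 lie left of the line, with HSPA5 at -1.59 in NB4 and 0.42 in HL-60, and the 4 with a higher response lie right of it.

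Other genes of the ER pathway were taken from 8 lists that hold none of the 34. Their counts are to be read beside all genes tested in NB4 with the combination. Of these 68.2% passed, 35.4% higher and 32.8% lower. Of 31 other ER folding genes 9 rose and 15 fell in NB4 with the combination (median -0.22, against 0.05 over all genes). The smallest p-values there belonged to PRDX4, an ER peroxiredoxin, PDIA5 and CNPY3, a co-chaperone of GRP94, with log2 changes of -1.37 for PRDX4, -1.38 for PDIA5 and 1.07 for CNPY3. Of 26 genes that build and transfer N-glycans 3 rose and 17 fell (median -0.28), with DPAGT1 (-1.23 ± 0.0694) and STT3B (-1.07 ± 0.068), and KRTCAP2 (0.82 ± 0.12), MAGT1 (0.39 ± 0.0642) and OST4 (0.27 ± 0.0714) as the exceptions. Of 23 other degradation genes 6 rose and 10 fell, among them the ubiquitin-conjugating enzymes UBE2J1 (1.01 ± 0.0596) and UBE2G2 (-0.77 ± 0.0607) and the membrane protein ERLIN1 (-0.92 ± 0.0576). Of 20 other translocon and signal peptidase genes 5 rose and 10 fell, with SRPRB (-1.05 ± 0.0719) and SRP72 (-1.04 ± 0.0786) and SEC11A (0.67 ± 0.056). Of 19 other COPII genes 5 rose and 8 fell, with LMAN1 (-0.82 ± 0.0737), a cargo receptor, and the coat genes SEC23B (0.44 ± 0.0622) and SEC16A (0.43 ± 0.0617).

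In HL-60 most of the other translocon and COPII genes rose with the combination, where 60.4% of all genes passed (30.7% higher and 29.7% lower). Of 20 translocon and signal peptidase genes 12 rose and 2 fell (median 0.25, against 0 over all genes), with SEC62 (0.70 ± 0.0623), SSR3 (0.46 ± 0.0414) and SEC11A (0.49 ± 0.0454), and SPCS1 (-0.30 ± 0.0553) and SRPRB (-0.12 ± 0.0502) against the rest. Of 19 other COPII genes 11 rose and 1 fell (median 0.31), with SEC23A (0.84 ± 0.0504), LMAN1 (0.73 ± 0.0554) and SEC24A (0.56 ± 0.0703), and LMAN2 (-0.30 ± 0.0553) against the rest. Of 24 other degradation genes 13 rose and 6 fell, led by the mannosidase MAN1A1 (5.14 ± 0.116), at a mean of 67.3 CPM in combination and 1.95 CPM in untreated libraries, with UBE2J1 (1.00 ± 0.0491) and ERLIN1 (-1.15 ± 0.0447). Other folding genes split, 12 higher and 10 lower of 31, with TXNDC11 (0.86 ± 0.058), ERP29 (-0.94 ± 0.0419) and QSOX1 (-0.85 ± 0.053). The N-glycan genes split 7 higher and 7 lower of 26.

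The PERK branch and the granule proteins were read beside the module. The shares of all genes given above for the combination apply to these lists too. Of 35 genes tested from the ATF4 and PERK arm 7 rose and 22 fell in NB4 with the combination (median -0.46), with the amino acid transporter SLC7A5 (-3.11 ± 0.0856), and with CEBPB (4.08 ± 0.0991) and WARS1 (1.58 ± 0.0583) upward. In HL-60 12 rose and 18 fell of 37 with the combination (median -0.10), CEBPB (4.53 ± 0.111) and ATF3 (4.21 ± 0.135) among those that rose. With ATO alone 25 of the 37 rose in HL-60 and 2 fell (median 0.32, against 0.02 over all genes), whereas in NB4 10 rose and 11 fell of 35 with ATO. Of all genes tested with ATO, 16.5% rose and 12.1% fell in HL-60, and 21.2% rose and 19.6% fell in NB4. Of 19 other stress sensing and regulation genes 10 rose and 8 fell in NB4 with the combination, with CREB3L2 (2.05 ± 0.059), a relative of CREB3, and EIF2S1 (-1.03 ± 0.0673) and NFYB (-1.19 ± 0.0882). In HL-60 7 rose and 7 fell, with PPP1R15A (1.64 ± 0.0718), CREB3L2 (0.78 ± 0.0429) and PPP1R15B (0.61 ± 0.0471), of which the PPP1R15 genes encode the subunits that reverse the PERK signal. Azurophil granule genes split, 7 higher and 6 lower of 14 in NB4 and 7 higher and 8 lower of 15 in HL-60. MPO, a client of these chaperones, averaged 1960 CPM in NB4 combination, 4690 in ATRA, 7070 in ATO and 8770 CPM in untreated libraries. In HL-60 it averaged 76.5 CPM in combination, 344 in ATRA, 1210 in ATO and 2340 CPM in untreated libraries. The order of these group means was that of CALR in both lines, and the part of MPO in the CALR result was not tested.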

How the data were processed

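The deposited file is a table of raw read counts per Ensembl gene in 24 libraries. Per the submitters' processing notes, the authors used fastp, HISAT2, featureCounts and DESeq2 with the human genome build GRCh38; versions and strand setting: not given in the sources used here. Of counts from 1 to 9, 74.4% were even, against 51.5% of counts of 500 or more, so both mates of a pair may have been counted, and halved counts were tried. Totals of 37811652 to 57795273 counts were analysed as deposited, with 60400 of 60655 genes carrying a symbol.

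Counts were fitted in R 4.3.3 with edgeR 4.0.16 (filterByExpr, TMM scaling, quasi-likelihood F test, Benjamini-Hochberg adjustment over all genes tested): 12 libraries of a line (16370 genes in NB4 and 15895 in HL-60, 8 residual degrees of freedom) or all 24 for differences between lines (17930 genes, 16 residual degrees of freedom). Alternatives were DESeq2 1.42.0, limma 3.58.1 (voom), other scalings, filters and thresholds, a batch block and each library left out. The labels give the same batch numbers to all groups and name no block. Whether equal numbers pair the samples is not known, and the main fits did not use them. Over 18 pairs of libraries with the same number, residuals correlated at -0.0516 to 0.014 in NB4; the range over the 18 HL-60 pairs was -0.0103 to 0.037. On data simulated for NB4 ATRA against untreated, 73.1% of 1.5-fold and 97.0% of 2-fold changes were recovered with 3.23% false calls. That simulation changed 200 of 16370 genes, none of them at low counts, and gave every gene the same spread. In the data 59.9% of genes were called in this comparison, so the simulated rates need not hold there.

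The members and gene lists were chosen with earlier results of these data known. Values in every library are given for the members with the largest changes, the sensors, HSPA5, XBP1 and members whose response differed between the lines. From other lists at most the 3 genes of smallest p per line, and those against the direction of their list, are named.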

Additional observations from a re-analysis of the deposited data

Results flagged for a closer look

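The same treatment had different effects in the 2 lines for the genes given here, by edgeR's quasi-likelihood test of the difference itself. Each value is the NB4 log2 change less the HL-60 log2 change. With the combination the NB4 response was lower for HSPA5 (-1.98), XBP1 (-1.88), HSP90B1 (-1.56), CRELD2 (-1.40), DNAJB9 (-1.27), MANF (-1.20), CALR (-1.16), PDIA6 (-0.93), CANX (-0.92), HYOU1 (-0.86), PDIA4 (-0.78), PDIA3 (-0.76), SERP1 (-0.75), SSR1 (-0.59), SEL1L (-0.54), DNAJC3 (-0.42), DERL1 (-0.39), SEC61B (-0.36), SEC61A1 (-0.33), DNAJB11 (-0.30) and ATF6 (-0.22). It was higher for CREB3 (1.07), ERN1 (1.04), EDEM2 (0.56) and OS9 (0.49). With ATRA the NB4 response was lower for CRELD2 (-1.21), HSPA5 (-0.66), CALR (-0.62), DNAJB9 (-0.58), SERP1 (-0.52), XBP1 (-0.51), HERPUD1 (-0.42), HSP90B1 (-0.41), PDIA4 (-0.37), MANF (-0.37), CANX (-0.34), HYOU1 (-0.34), SYVN1 (-0.31), SEL1L (-0.29) and PDIA6 (-0.20). It was higher for EDEM1 (1.24), ERO1A (1.05), ERN1 (0.80), CREB3 (0.61), EDEM2 (0.45), OS9 (0.36), SEC24D (0.30), P4HB (0.28) and DNAJB11 (0.23). With ATO the NB4 response was lower for DNAJB9 (-0.70), CRELD2 (-0.55), XBP1 (-0.46), HSP90B1 (-0.36), HSPA5 (-0.36), CALR (-0.28), CANX (-0.27), SERP1 (-0.23) and PDIA6 (-0.20). It was higher for ERN1 (0.77), CREB3 (0.62) and SEC24D (0.43). The interaction of ATRA and ATO was lower in NB4 for HSPA5 (-0.96), EDEM1 (-0.95), XBP1 (-0.91), MANF (-0.81), ERO1A (-0.81), HSP90B1 (-0.80), SEC24D (-0.67), PDIA3 (-0.64), PDIA6 (-0.52), DNAJB11 (-0.51), DERL1 (-0.49), DNAJC3 (-0.43), SEC61A1 (-0.42), HYOU1 (-0.38), CANX (-0.32) and PDIA4 (-0.29). It was higher for HERPUD1 (0.53). Several of these calls were not kept under every alternative. The ATO difference of HSP90B1 was lost without NB4 untreated replicate 1 (adjusted p = 0.0575), that of SERP1 without NB4 untreated replicate 2, NB4 ATO replicate 2, or HL-60 untreated replicate 1 (adjusted p = 0.0553 to 0.0738) and that of PDIA6 without NB4 untreated replicate 1 or 2, NB4 ATO replicate 1 or 2, HL-60 untreated replicate 1, or HL-60 ATO replicate 3 (adjusted p = 0.0533 to 0.0859). The ATRA difference of DNAJB11 was lost with the batch block (adjusted p = 0.0606), as was the difference of PDIA4 in the interaction (adjusted p = 0.0532). The response differences share their untreated libraries, so they are not independent of each other.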

How the results depend on the processing

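Of 11050 recomputed changes of single genes, 10538 were counted as the same, 346 fell below the threshold and 142 passed it. Counted as the same were values that kept direction and call, and uncalled values whose sign changed by less than their SE. A further 23 uncalled values changed sign by at least their SE. In 1 case the value reversed: SERP1 in HL-60 combination against ATO, at 0 (adjusted p = 0.996) with libraries scaled by their totals alone and 0.10 as reported. The NB4 interaction count of 13 was 8 at an adjusted p below 0.01 and 8 to 16 with 1 library left out; the smaller number of calls at 0.01 follows from the stricter threshold, and for the libraries the cause was not tested. The other counts stayed within 1.5 times their values under each alternative run. With 1 library left out, the NB4 counts were 26 to 27 for the combination, 24 to 26 for ATRA and 23 to 25 for ATO, and the HL-60 counts 26 to 28, 19 to 21 and 14 to 16 in the same order. The batch block left all calls of treated against untreated cells as they were. Under the block the counts were 12 for the NB4 interaction, 22 for the NB4 combination against ATRA and 24 against ATO, 25 for the HL-60 combination against ATRA, 23 for the ATRA and 26 for the combination difference between lines, and 16 for the difference in interaction. The count of 26 for untreated cells under the block sets single batches of the lines against each other and is no check of that comparison. The block also lost the call of DNAJB9 in NB4 combination against ATO (adjusted p = 0.0604) and gained CREB3 and SYVN1 in HL-60 combination against ATRA (adjusted p = 0.0304 and 0.0479) and ERO1A in the combination difference (adjusted p = 0.0477). SDF2L1, ERN1 and DNAJB9 in NB4, at group means of 4.14 to 12.1 CPM, were among those with the widest errors of the changes against untreated cells (SE 0.131 to 0.146). With 3 libraries a group, changes under 1.5-fold can be missed.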
